A study of Mus musculus with 16 samples.

Results

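Malat1, Neat1, Miat, Sox2ot, Rmst, Dlx6os1, Pantr1, Gas5 and Pvt1 are 9 long noncoding RNAs that are expressed in the developing brain, and their levels were followed in mouse cortical neural stem cells (NSC) that expressed an shRNA against the long noncoding RNA RUS. The genes were chosen by name, as every line of the expression tables with 1 of these 9 symbols. They occupy 10 of the 55471 lines in each table, because Dlx6os1 has 2 lines. All 9 passed the filter of a mean of 0.1 TPM (transcript abundance per length and library, summing to a fixed total) on both days.

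The NSC were primary cells from cortices of C57BL/6 embryos (E15 to E16), transduced with a lentivirus that expressed either a scramble shRNA (shRNA CON) or an shRNA against RUS (shRNA RUS, genotype label for RUS knockdown). Cells were collected at day 5 and at day 7 after seeding. This gave 4 groups of 4 libraries, 16 in all. All groups shared the serum-containing growth medium with FGF2 and a lentiviral vector, and differentiation medium was given from day 5, so no group stands for untransduced cells. The cultures were mixed, and a change in bulk RNA cannot tell fewer cells of a type apart from less RNA per cell. RNA was selected for poly(A) tails.

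Long noncoding RNAs are transcribed by RNA polymerase II but do not code for protein, and many of them act in the nucleus. Malat1 and Neat1 are built into nuclear bodies, the speckles and the paraspeckles. Sox2ot, Dlx6os1 and Pantr1 lie beside or across genes for transcription factors of neural progenitors, whereas Gas5 carries small nucleolar RNAs (snoRNAs) in its introns and Pvt1 lies next to Myc.

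RUS is listed as Gm20754 and was near the lower limit of the tables. On day 5 its level was 0.24, 0.11, 0.18 and 0.16 TPM in shRNA CON replicates 1 to 4 and 0.05, 0, 0.12 and 0.32 TPM in the libraries labelled shRNA RUS. On day 7 it was 0.70, 0.72, 0.26 and 0.54 TPM in shRNA CON and 0.54, 0.38, 0 and 0.04 TPM in shRNA RUS. The mean with shRNA RUS was 71.0% of control on day 5 and 43.2% on day 7, and neither difference passed an exact two-sided permutation test (p = 0.543 and p = 0.143, smallest possible p 0.0286). These values are TPM as deposited. After division by a factor for each library the means of shRNA CON and shRNA RUS were 0.162 and 0.125 TPM on day 5. On day 7 they were 0.556 and 0.241 TPM. The ranges overlapped on both days, and the library labelled shRNA RUS replicate 4 of day 5 had more Gm20754 than any control of that day. Knockdown is therefore used below as the name of the labelled comparison. The same library stood apart from its group over all genes, with a first principal component of 15.9 against 40.5 to 56.2 in the other 3 and -53.6 to -26.2 in the controls, so it lay on the side of its own group. Day 5 values of the members and the counts of the gene lists are therefore also given without it. Without it the day 5 marker calls were 5 lower for oligodendrocyte lineage, 2 lower for microglia, 3 higher and 1 lower for NSC, 2 higher for astrocyte, 1 higher and 2 lower for neuron and 1 lower for vascular markers, and those with all libraries follow. Of the 7 NSC and radial glia markers, all 7 were at 1 TPM or more in every group, as were the 7 neuron, 6 interneuron, 6 astrocyte and 7 microglia markers. The summed microglia markers were 202 to 216 TPM in shRNA CON and 85.7 to 110 TPM in shRNA RUS on day 7 (7 of 7 called lower), and on day 5 the sums were 74.8 to 79.4 and 64.4 to 80.7 TPM (2 of 7 lower). The summed oligodendrocyte lineage markers were 403 to 446 TPM and 262 to 287 TPM on day 7 (6 of 8 lower). On day 5 these sums were 227 to 303 and 152 to 235 TPM (4 of 8 lower). The summed NSC markers were 11400 to 13400 TPM in shRNA CON and 16300 to 19500 TPM in shRNA RUS on day 5 (3 of 7 higher, 2 lower), and 7290 to 7630 and 7650 to 8420 TPM on day 7 (2 higher, 3 lower). Most of this sum was Vim (8450 to 12400 TPM on day 5) and Fabp7 (3330 to 4740 TPM), whereas Nes fell on both days (53 to 28.9 and 111 to 48.5 TPM), as did Hes5 (8.95 to 5.71 and 7.97 to 4.49 TPM), a call lost on day 5 without shRNA RUS replicate 4 (adjusted p = 0.0609). The summed astrocyte markers were 4050 to 4250 and 5470 to 5860 TPM on day 5 (2 of 6 higher, none lower) and 2750 to 2800 and 3510 to 3680 TPM on day 7 (3 higher, 1 lower). The summed neuron markers overlapped between the groups, at 446 to 507 and 461 to 515 TPM on day 5 (2 of 7 higher, 2 lower) and 766 to 846 and 720 to 850 TPM on day 7 (3 higher, 2 lower). The 6 vascular markers summed to 18.9 to 20.5 TPM in shRNA CON and 33.6 to 36.8 TPM in shRNA RUS on day 7 (3 of 5 tested higher, 1 lower), where Pdgfrb went from 11.4 to 28.6 TPM and Kdr from 6.30 to 2.51 TPM, and Col1a1 (log2 1.23) and Col3a1 (0.93) rose. On day 5 they summed to 22.1 to 24.2 and 21.0 to 28.2 TPM (1 higher, 1 lower), and Cldn5 was under 0.1 TPM in every group. In the other marker lists no gene was under 0.1 TPM in any group, and their part in the results below was not tested. Of all lines averaging 1 TPM or more, 21.0% were called higher and 22.7% lower on day 5, and 32.0% and 33.2% on day 7.

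In control cells on day 5 Malat1 was the member with the highest level, at 390 ± 39.3 TPM (SD, n = 4), followed by Gas5 at 348 ± 29.5, whose range overlapped that of Malat1. Pantr1 came next at 206 ± 22.5 TPM. Sox2ot (64.1 ± 5.10), Miat (57.0 ± 8.4) and Neat1 (46.9 ± 5.68) formed a middle group in which neighbours overlapped, and Pvt1 (21.3 ± 1.93), Dlx6os1 (16.3 ± 2.22) and Rmst (0.850 ± 0.414) were lower, each apart from the next. Here and throughout, apart from the single-library values of Gm20754, levels are TPM divided by a factor for each library, and TPM are per length of transcript. Malat1 ranked 320 among 22685 lines with at least 0.1 TPM, and Rmst ranked 15853. By day 7 in shRNA CON Dlx6os1, at 50.8 ± 4.91 TPM, stood above Pvt1 (11.3 ± 0.379) and overlapped Miat (54.8 ± 1.31), and Neat1 (57.7 ± 2.44) stood above Miat with overlapping ranges.

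**Figure D1:**
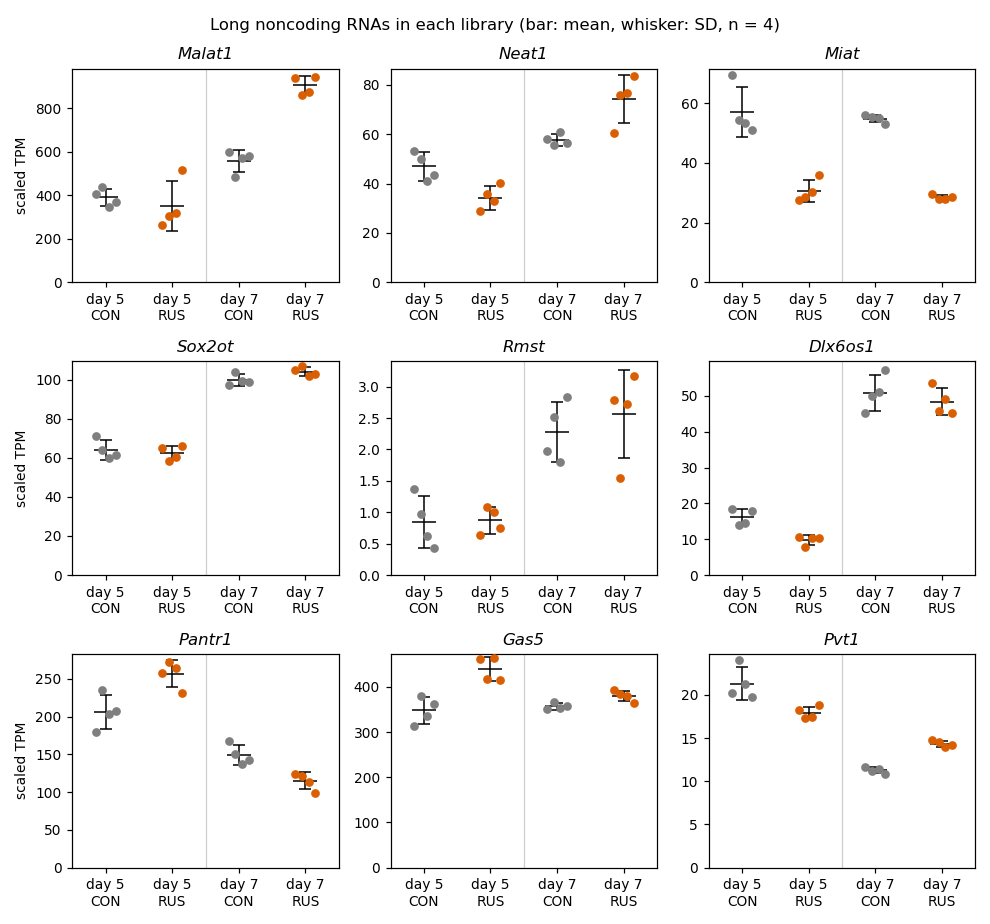
Level of each long noncoding RNA in scaled TPM (vertical axis, from 0) in the 4 libraries of each group; grey points are shRNA CON, orange points shRNA RUS, the horizontal bar is the mean and the whisker the SD (n = 4). Values were scaled within each day. Miat separated the groups on both days (50.9 to 69.4 against 27.7 to 36.0 TPM on day 5), and 1 day 5 shRNA RUS library of Malat1 lay at 517 TPM, above the other 3. Over all lines tested the groups were apart in 32.8% on day 5 and in 47% on day 7.

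With RUS knockdown 6 of the 9 RNAs passed the test on each day, but not the same 6 and mostly not in the same direction. On day 5 Pantr1 and Gas5 rose, while Neat1, Miat, Dlx6os1 and Pvt1 fell. On day 7 Malat1, Neat1, Gas5 and Pvt1 rose, while Miat and Pantr1 fell. The test was limma on log2(scaled TPM + 0.1) with Benjamini-Hochberg adjustment over all genes tested and a threshold of 0.05. By this test the background on day 5 was 14.8% of 22581 lines higher and 17.9% lower, and on day 7 it was 23.4% and 25.8% of 24606 lines. Among lines with at least 1 TPM on average, where 8 of the 9 members lie on day 5 and all 9 on day 7, it was 21.0% higher and 22.7% lower on day 5 and 32.0% and 33.2% on day 7. The 2 and 4 calls on day 5 and the 4 and 2 calls on day 7 are few, and a total of 6 of 9 on day 7 is near the share of such lines called in either direction. The split of calls over all genes moved with the scaling on day 5, where 45.4% of calls were higher, 22.7% with TPM as deposited and 33.2% after scaling to the 75th percentile. The median log2 fold change over the 9 was -0.19 on day 5 and 0.09 on day 7, against -0.06 and -0.03 over all lines tested. Of the lines annotated by GENCODE as long noncoding RNAs, 161 of 3553 tested were higher and 412 lower on day 5, and 692 of 4416 were higher and 595 lower on day 7. Of those averaging 1 TPM or more, 10.9% were higher and 20.0% lower on day 5, and 30.4% and 22.2% on day 7.

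**Figure D2:**
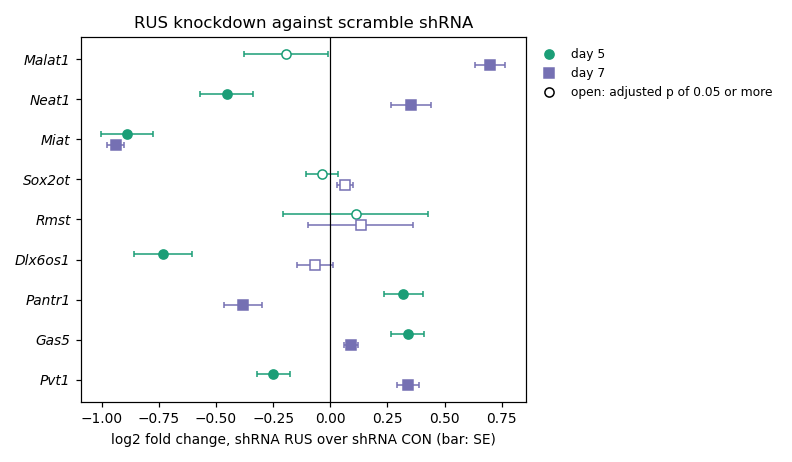
Log2 fold change of shRNA RUS over shRNA CON (horizontal axis, bar: SE) for each member on day 5 (circles) and day 7 (squares); filled symbols passed the test. Miat lay at -0.89 and -0.94, whereas Neat1, Pvt1 and Pantr1 changed sign between the days.

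Malat1 is the abundant RNA of nuclear speckles. It is transcribed from 1 exon on the minus strand of chromosome 19 (chr19:5795690-5802672, GRCm38, 6983 bases), 22035 bases from Neat1 on the same strand. On day 5 its level was 404, 437, 346 and 371 TPM in shRNA CON replicates 1 to 4 and 264, 305, 320 and 517 TPM in shRNA RUS. The first 3 shRNA RUS libraries lay below all controls and the fourth above them. The log2 fold change was -0.19 ± 0.18 (SE), which did not pass the test (limma adjusted p = 0.458). Without the fourth library it was -0.39 ± 0.09 and passed (adjusted p = 0.0110), so that 7 of the 9 members were then called on day 5 (2 higher, 5 lower), against 17.4% of all lines higher and 20.3% lower. On day 7 Malat1 was at 599, 483, 573 and 578 TPM in shRNA CON and 939, 861, 875 and 941 TPM in shRNA RUS. Every shRNA RUS library was above every control, a 1.62-fold rise (log2 0.70 ± 0.07, limma adjusted p = 2.19e-05). Such separation is common, since the 2 groups did not overlap in 32.8% of all lines tested on day 5 and in 47% on day 7. The same shares apply to the members below.

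Neat1, which scaffolds the paraspeckles, has a long form of 20771 bases from 1 exon (chr19:5824708-5845478, minus strand). On day 5 it was at 53.3, 49.9, 41.0 and 43.5 TPM in shRNA CON and 28.7, 35.6, 32.8 and 40.2 TPM in shRNA RUS. The groups did not overlap, although the highest shRNA RUS library came close to the lowest control, and the log2 fold change of Neat1 was -0.45 ± 0.12, a fall at an adjusted p of 0.0150 (limma). It fell by 0.53 without the fourth shRNA RUS library (adjusted p = 0.00512). On day 7 the values were 58.2, 55.4, 60.9 and 56.2 TPM in shRNA CON and 60.6, 75.7, 76.8 and 83.4 TPM in shRNA RUS. In all, 3 of 4 shRNA RUS libraries were above all controls and the lowest fell among them, and the rise was 1.28-fold (log2 0.35 ± 0.09, adjusted p = 0.00811). The tables hold 1 line for Neat1, so short and long forms of Neat1 were not resolved here.

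The 3′ ends of Malat1 and of long Neat1 are known to lack an ordinary poly(A) tail and to be protected by U-rich tracts that fold onto an A-rich tract. Since the libraries were selected for poly(A), the tracts are shown, as read from the GENCODE vM21 transcripts. Capitals mark TTTCTTTT, TTTGCTTT and AAAGCAAA, the letters searched on the transcript strand. The Malat1 stretch is chr19:5795981-5796075 and the Neat1 stretch chr19:5824708-5824807, both GRCm38 on the minus strand.
Malat1: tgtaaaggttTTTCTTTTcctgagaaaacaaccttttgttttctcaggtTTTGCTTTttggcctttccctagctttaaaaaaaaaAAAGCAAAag
Neat1: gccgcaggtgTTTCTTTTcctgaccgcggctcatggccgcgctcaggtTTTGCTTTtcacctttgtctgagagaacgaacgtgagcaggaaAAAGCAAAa
The 3 strings occur in 15.2%, 7.59% and 7.86% of 18930 long noncoding transcripts, and all 3 anywhere in 78 of them (0.412%), the longest transcripts of Malat1, Neat1, Miat and Sox2ot among them. The Neat1 transcript ends 1 base after the last A-rich string, and the annotated Malat1 transcript runs on for 293 bases. How much of either RNA the selection step captured is not given in the tables.

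Proteins of the same nuclear bodies were read from a list of 11 paraspeckle and 10 speckle genes. On day 5, 6 of the 11 paraspeckle genes were lower and none higher, and on day 7, 4 were lower and 2 higher. Of all lines averaging 1 TPM or more, 22.7% were lower and 21.0% higher on day 5, and 33.2% and 32.0% on day 7. The median log2 fold change of the paraspeckle genes was -0.25 on day 5 and -0.12 on day 7. Nono and Sfpq, the paired RNA-binding proteins of the paraspeckle core, both fell on both days. Sfpq went from 208 ± 8.44 to 135 ± 11.2 TPM on day 5 (log2 -0.63 ± 0.07, adjusted p = 0.000151) and from 298 ± 8.84 to 272 ± 2.03 TPM on day 7 (log2 -0.13 ± 0.03, adjusted p = 0.00471). Nono went from 211 ± 11.1 to 151 ± 7.56 TPM and from 285 ± 13.2 to 210 ± 7.30 TPM (log2 -0.48 and -0.44). Tardbp, which encodes the RNA-binding protein TDP-43, fell as well (log2 -0.56 and -0.32), Rbm14 fell on day 5 (-0.34), and on day 7 Hnrnpk fell (-0.27) while Hnrnph3 rose (0.29). Neat1 and Sfpq thus fell together on day 5, whereas on day 7 Neat1 rose while both proteins' RNAs fell. Of the speckle genes, 3 of 10 were lower on day 5 and none higher (4 and none without shRNA RUS replicate 4, and 6 and none of the paraspeckle genes), and 4 were higher and 3 lower on day 7. The speckle counts of day 7 were near the shares over lines averaging 1 TPM or more. The splicing factors Srsf1, Srsf3 and Srsf7 were the 3 that fell on day 5, and they fell on day 7 as well (log2 -0.34, -0.31 and -0.54). Srrm2, a scaffold protein of speckles, rose on day 7 (log2 0.35 ± 0.07).

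Miat, also called Gomafu, is a nuclear RNA of neurons and their progenitors that does not sit in the known speckles. It was the member called lower on both days, at 0.540 and 0.522 of control. Its gene lies at chr5:112213228-112229395 on the minus strand (GRCm38), with 6 annotated transcripts of up to 9163 bases. On day 5 its level was 69.4, 54.4, 53.2 and 50.9 TPM in shRNA CON and 27.7, 28.6, 30.4 and 36.0 TPM in shRNA RUS. On day 7 it was 55.9, 55.2, 55.0 and 52.9 TPM in shRNA CON and 29.7, 27.9, 27.9 and 28.6 TPM in shRNA RUS. Every control library was above every shRNA RUS library on both days, and on day 7 each group spanned no more than 3 TPM. The fold was 0.540 on day 5 (log2 -0.89 ± 0.11, limma adjusted p = 0.000422, and -0.97 without shRNA RUS replicate 4) and 0.522 on day 7 (log2 -0.94 ± 0.04, adjusted p = 1.76e-07). The effects on the 2 days differed by log2 -0.06 ± 0.13, which did not pass the test (adjusted p = 0.753).

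Miat is known for repeats of TACTAAC, the letters of the yeast intron branch point, which bind the splicing factor Sf1 as well as Qk and Celf3. The 2 stretches of Miat-205 that hold its 6 copies are printed with the repeat in capitals, the first from chr5:112217309-112217460 and the second from chr5:112216752-112216812, both GRCm38 on the minus strand within 1 exon.
Miat repeats 1 to 3: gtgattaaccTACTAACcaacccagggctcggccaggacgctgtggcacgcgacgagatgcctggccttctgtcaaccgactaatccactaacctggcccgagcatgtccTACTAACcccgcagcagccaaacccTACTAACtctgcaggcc
Miat repeats 4 to 6: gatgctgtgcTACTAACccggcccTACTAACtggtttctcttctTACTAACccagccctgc
At least 1 TACTAAC on the transcript strand occurs in 716 of 18930 long noncoding transcripts (3.78%), and 6 copies in 3 of them (0.0158%), of which 2 are Miat transcripts. Among the longest transcripts of the other members Neat1-201 holds 1 copy and the rest none. The RNAs for the 3 proteins rose on day 7, as Miat itself stayed low. Celf3 went from 24.3 ± 0.783 to 31.8 ± 3.48 TPM (log2 0.38 ± 0.07), Qk from 377 ± 20.6 to 454 ± 16.4 TPM (0.27 ± 0.05) and Sf1 from 139 ± 4.08 to 158 ± 7.35 TPM (0.18 ± 0.04), with limma adjusted p = 0.00168, 0.000870 and 0.00443. On day 5 none of the 3 passed, and their log2 fold changes were -0.18, -0.38 and -0.12. Without shRNA RUS replicate 4 of that day Qk and Sf1 were called lower (log2 -0.51 ± 0.12 and -0.15 ± 0.05, limma adjusted p = 0.0119 and 0.0461) and Celf3 was not (-0.08). For each of the 3 the effects on the 2 days differed by the interaction test (log2 0.54, 0.64 and 0.29, adjusted p = 0.00805, 0.0106 and 0.00425).

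Dlx6os1, also known as Evf2, is transcribed on the minus strand across Dlx6 in the domain of interneuron progenitors (chr6:6820189-6871592, GRCm38). Its level on day 5 was 18.4, 14.1, 14.6 and 17.9 TPM in shRNA CON and 10.5, 7.77, 10.3 and 10.4 TPM in shRNA RUS. All shRNA RUS libraries were below all controls, and Dlx6os1 fell to 0.602-fold (log2 -0.73 ± 0.13, limma adjusted p = 0.00212, and -0.77 without replicate 4 of shRNA RUS). On day 7 the values were 45.2, 49.9, 51.0 and 57.2 TPM in shRNA CON and 53.7, 45.8, 49.1 and 45.2 TPM in shRNA RUS. These groups overlapped over most of their range, and the log2 difference of -0.07 ± 0.08 did not pass (adjusted p = 0.512). The effects on the 2 days differed (log2 0.65 ± 0.16, adjusted p = 0.00621).

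The neighbours Dlx5 and Dlx6, homeobox genes of the interneuron lineage, also fell on day 5. Dlx6 went from 7.65 ± 0.663 to 5.18 ± 0.363 TPM (log2 -0.55 ± 0.09, adjusted p = 0.00162) and Dlx5 from 12.8 ± 1.34 to 10.1 ± 1.31 TPM (-0.34 ± 0.11, adjusted p = 0.0419). Without shRNA RUS replicate 4 Dlx6 kept its call (-0.50 ± 0.09, adjusted p = 0.00250) and Dlx5 did not (-0.24 ± 0.09, adjusted p = 0.0554). On day 7 neither passed, at log2 0.00 and -0.11. Over the 16 libraries log2 levels of Dlx6os1 correlated with those of Dlx5 at r = 0.910 and with those of Dlx6 at r = 0.763. Once the group means were taken out r was -0.172 and 0.442, so most of the first correlation lay between groups. The summed levels of 6 interneuron markers, Dlx5 included, were 156 to 193 TPM in shRNA CON and 132 to 160 TPM in shRNA RUS on day 5 (3 of 6 lower, none higher, and 2 lower without shRNA RUS replicate 4). On day 7 they were 266 to 287 and 299 to 347 TPM (4 of 6 higher, none lower). Of all lines averaging 1 TPM or more, 21.0% were higher and 22.7% lower on day 5, and 32.0% and 33.2% on day 7. No interneuron marker was under 0.1 TPM in any group, and the part of this list in the Dlx6os1 values was not tested. The tables pair lines with symbols and no other identifier. The second Dlx6os1 line, which may be a 146-base model at chr6:6871488-6871633 of that name, has an authors' mean normalised count of 0.111 on day 5 and 0.313 on day 7. Its levels of 1.54 to 14.8 TPM are therefore uncertain, and it passed no test.

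Pantr1 starts 925 bases from Pou3f3, which encodes a POU factor of cortical progenitors, and runs away from it on the opposite strand (chr1:42590782-42694842, minus strand, GRCm38). On day 5 it was at 180, 235, 203 and 207 TPM in shRNA CON and 258, 272, 264 and 232 TPM in shRNA RUS. Only the lowest shRNA RUS library reached into the control range, and Pantr1 rose 1.25-fold (log2 0.32 ± 0.08, limma adjusted p = 0.0183). This call was lost with TPM as deposited (log2 0.16), after scaling to the 75th percentile (0.24) and after quantile normalization (0.14), and on leaving out shRNA RUS replicate 2 or 3 (adjusted p = 0.0524 and 0.05). Without shRNA RUS replicate 4 the value was 0.37 ± 0.08 (adjusted p = 0.00819). On day 7 Pantr1 was at 168, 151, 137 and 142 TPM in shRNA CON and 124, 121, 114 and 98.8 TPM in shRNA RUS. Here all shRNA RUS libraries were below all controls, a change to 0.767-fold (log2 -0.38 ± 0.08, adjusted p = 0.00376). The effects on the 2 days differed (log2 -0.71 ± 0.12, adjusted p = 0.000592).

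Both genes beside Pantr1 rose on day 7, as Pantr1 fell. Pou3f3 rose from 44.9 ± 2.04 to 53 ± 1.06 TPM (log2 0.24 ± 0.04, adjusted p = 0.000851). Pantr2, the long noncoding RNA 12.2 kb away on the other flank of Pou3f3, was at 12.5, 12.5, 11.9 and 11.8 TPM in shRNA CON and 30.7, 34.4, 28.2 and 37.4 TPM in shRNA RUS. With its 2.65-fold rise (log2 1.41 ± 0.08, adjusted p = 1.16e-06) it had the largest fold change of the called genes in the list of other long noncoding RNAs, among those averaging 1 TPM or more. On day 5 neither Pou3f3 (log2 0.10 ± 0.07) nor Pantr2 (-0.15 ± 0.08) passed the test.

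Sox2ot and Rmst, both tied to the progenitor factor Sox2, were not called on either day. The Sox2 gene lies within Sox2ot on the same strand, and Rmst is known to bind the Sox2 protein in neuronal differentiation. Sox2ot (chr3:34104270-34682619, plus strand) was at 71.3, 63.9, 59.8 and 61.3 TPM in shRNA CON and 65.2, 58.2, 60.5 and 66.0 TPM in shRNA RUS on day 5. On day 7 it was at 97.0, 104, 99.3 and 98.8 TPM and at 105, 107, 102 and 103 TPM. The ranges overlapped on both days, with log2 differences of -0.04 ± 0.07 and 0.07 ± 0.03 (adjusted p = 0.740 and 0.146). Without shRNA RUS replicate 4 the day 5 value was -0.06. Sox2 was at 154 ± 17.8 and 153 ± 20.4 TPM on day 5 and at 160 ± 15.5 and 176 ± 9.74 TPM on day 7, and did not pass either. In GENCODE vM21 no exon of Sox2ot overlaps one of Sox2.

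Rmst (chr10:92071037-92165170, minus strand) was close to the floor of the analysis, with an authors' mean normalised count of 12.5 on day 5 and 40.5 on day 7. It was at 1.37, 0.967, 0.627 and 0.432 TPM in shRNA CON and 0.641, 1.09, 1.01 and 0.744 TPM in shRNA RUS on day 5. On day 7 it was at 1.98, 2.52, 1.80 and 2.83 TPM and at 2.79, 1.54, 2.72 and 3.17 TPM. The SE of its log2 difference was 0.32 on day 5 and 0.23 on day 7, against differences of 0.11 (0.17 without shRNA RUS replicate 4) and 0.13. Nedd1, the nearest listed coding gene at 520 kb, which acts at the centrosome, fell on both days (log2 -0.73 ± 0.11 and -0.49 ± 0.06).

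**Figure D3:**
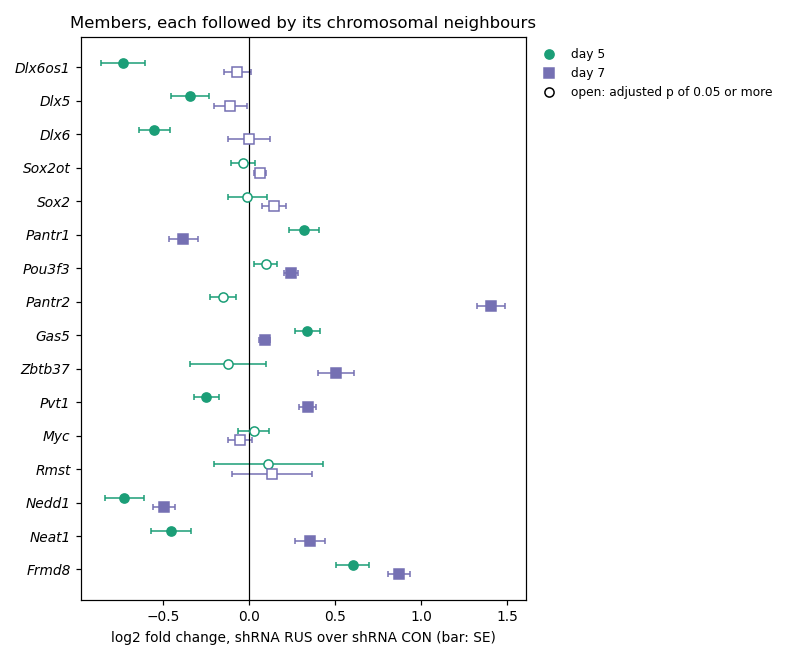
Log2 fold change of shRNA RUS over shRNA CON (horizontal axis, bar: SE) on day 5 (circles) and day 7 (squares), with each long noncoding RNA except Malat1 and Miat followed by its chromosomal neighbours; filled symbols passed the test. Dlx6os1, Dlx5 and Dlx6 lay below 0 on day 5, whereas Pantr1 (-0.38) and Pantr2 (1.41) lay on opposite sides on day 7.

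Gas5 is the host of snoRNAs that guide the methylation of ribosomal RNA, and the level of its spliced RNA is known to depend on translation through nonsense-mediated decay. It lies at chr1:161034422-161038539 on the plus strand (GRCm38), where 10 snoRNA genes overlap it. On day 5 Gas5 was at 314, 381, 336 and 363 TPM in shRNA CON and 461, 417, 464 and 415 TPM in shRNA RUS. All shRNA RUS libraries were above all controls, a 1.26-fold rise (log2 0.34 ± 0.07, limma adjusted p = 0.00688, and 0.37 without shRNA RUS replicate 4). Under other scalings and settings with all libraries the value went down to 0.16, and the adjusted p up to 0.0495. On day 7 it was at 351, 367, 353 and 358 TPM in shRNA CON and 393, 385, 379 and 365 TPM in shRNA RUS. The ranges touched, and the 1.06-fold difference passed the test narrowly (log2 0.09 ± 0.03, adjusted p = 0.0418). That call was lost in 6 of 8 fits that left out 1 library (shRNA CON replicate 1, 3 or 4, or shRNA RUS replicate 1, 2 or 3, adjusted p up to 0.101) with scaling to the 75th percentile (log2 0.03, adjusted p = 0.666), without a filter (0.0721), without a trend (0.129), with the replicate block (0.0784) and in 1 fit over 16 libraries (0.299).

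Many snoRNA hosts begin with C and a run of pyrimidines, the 5′ terminal oligopyrimidine start of RNAs whose translation follows growth signals. In GENCODE vM21, 13 of the 99 transcripts of Gas5 and 12 snoRNA hosts (13.1%, from 7 of these 13 genes, and 5 of 25 for Gas5) start with C and a run of at least 5 pyrimidines, as do 2.22% of all long noncoding transcripts. For Gas5 and the 4 hosts that rose on day 5, the first 40 bases of 1 transcript with such a start are printed with the run in capitals. Such transcripts are the minority for each gene, at 1 of 3 for Snhg8, 1 of 5 for Snhg3, 1 of 5 for Zfas1 and 3 of 10 for Snhg12. Snhg5 and Snhg6 have 1 such transcript each as well and were not called on day 5 (log2 -0.19 and 0.27). The printed sequences come from GRCm38 at chr1:161035166-161035762 (plus, across an intron) for Gas5, chr3:123508365-123508404 (minus) for Snhg8, chr4:132352696-132353633 (minus, across an intron) for Snhg3, chr2:167063221-167063260 (plus) for Zfas1 and chr4:132308676-132308715 (plus) for Snhg12.
Gas5: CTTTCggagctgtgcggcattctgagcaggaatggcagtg
Snhg8: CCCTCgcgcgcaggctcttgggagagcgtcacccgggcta
Snhg3: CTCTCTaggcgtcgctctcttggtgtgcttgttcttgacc
Zfas1: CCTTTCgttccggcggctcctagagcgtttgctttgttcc
Snhg12: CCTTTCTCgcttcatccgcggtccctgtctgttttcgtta
Transcript starts in the annotation need not be the starts used in these cells.

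Of 14 snoRNA host genes tested, 4 rose and none fell on day 5 (5 and none without shRNA RUS replicate 4), and 7 rose and 5 fell on day 7. The 4 that rose on day 5 were Snhg8 (37.5 ± 7.16 to 53.4 ± 8.74 TPM, log2 0.51 ± 0.15), Snhg3 (28.1 ± 2.24 to 37.4 ± 1.08, 0.41 ± 0.06), Zfas1 (43.8 ± 3.70 to 57.5 ± 6.45, 0.39 ± 0.09) and Snhg12 (28.4 ± 2.10 to 35.1 ± 3.62, 0.30 ± 0.09). Each of these rose again on day 7, by log2 0.39, 0.49, 0.34 and 0.30. On day 7 Snhg4 also rose (log2 0.52 ± 0.09), whereas Snhg9 fell by 0.79 ± 0.18 and Snhg18 by 0.49 ± 0.09. Of 8 genes for nonsense-mediated decay, 5 rose on day 7, among them Smg6 (log2 0.43), Upf2 (0.37), Upf1 (0.35) and Smg5 (0.30), and on day 5 Upf3b alone passed, at log2 -0.24 (1 higher and 3 lower without shRNA RUS replicate 4). The counts of both lists are to be read against lines averaging 1 TPM or more. Of those lines 21.0% rose and 22.7% fell on day 5, and 32.0% and 33.2% on day 7. Zbtb37, whose gene starts head to head with Gas5, was not called on day 5 (log2 -0.12 ± 0.22) and rose on day 7 (0.50 ± 0.10).

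Pvt1 lies 47.6 kb downstream of Myc on the same strand (chr15:62037986-62378096, GRCm38) and is a known target of p53 as well as a neighbour of that oncogene. On day 5 it was at 20.2, 24.1, 21.3 and 19.8 TPM in shRNA CON and 18.3, 17.3, 17.4 and 18.8 TPM in shRNA RUS. The groups did not overlap but lay 1 TPM apart, and the fall to 0.842-fold passed (log2 -0.25 ± 0.07, limma adjusted p = 0.0275). It was kept without shRNA RUS replicate 4 (-0.27, adjusted p = 0.0239). It was lost after quantile normalization (-0.22, limma adjusted p = 0.0541) and with the replicate block (adjusted p = 0.0994). Leaving out shRNA CON replicate 2 or 3 or shRNA RUS replicate 2 or 3 lost it as well (adjusted p from 0.0619 to 0.0733). On day 7 Pvt1 was at 11.7, 11.2, 11.4 and 10.8 TPM in shRNA CON and 14.8, 14.5, 14 and 14.2 TPM in shRNA RUS. All shRNA RUS libraries were above all controls, a 1.27-fold rise (log2 0.34 ± 0.05, adjusted p = 0.000266). The difference between the effects of the 2 days was log2 0.58 ± 0.08 (adjusted p = 0.000144).

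Myc was not called on either day, at 13.5 ± 1.20 and 13.7 ± 1.35 TPM on day 5 and 21.3 ± 0.606 and 20.6 ± 2.16 TPM on day 7. Over the 16 libraries the log2 levels of Pvt1 and Myc correlated at r = -0.877, and at -0.371 with the group means taken out. Of 14 p53 targets, 4 rose and 5 fell on day 5 (6 and 6 without shRNA RUS replicate 4), and 8 rose and 4 fell on day 7. Among all lines averaging 1 TPM or more, 21.0% rose and 22.7% fell on day 5, and 32.0% and 33.2% on day 7. Cdkn1a, which encodes the cell cycle inhibitor p21, rose on both days (log2 0.35 ± 0.07 and 0.69 ± 0.05), as did Phlda3 (0.72 and 0.86), whereas Eda2r fell on both (-0.995 and -0.84). Trp53inp1 was lower on day 5 (-0.47) and higher on day 7 (0.22). The other p53 targets that fell on day 5 were Mdm2, Ccng1 and Btg2 (log2 -0.27, -0.22 and -0.19 without shRNA RUS replicate 4). On day 7 Zmat3 (log2 0.95), Bbc3, which encodes the cell death factor Puma (0.94), and Sesn2 (0.85) rose as well.

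**Figure D4:**
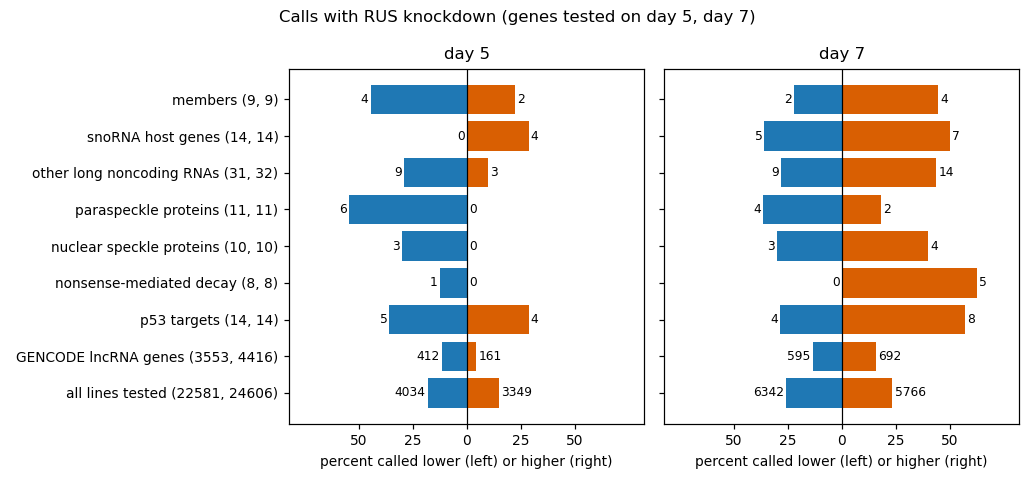
Percent of tested genes called lower (blue, left) and higher (orange, right) with RUS knockdown on day 5 and day 7 for the 9 members, the related gene lists, GENCODE long noncoding RNA genes and all lines tested; figures at the bar ends are gene counts. Among the paraspeckle genes 6 of 11 were lower on day 5, and among the nonsense-mediated decay genes 5 of 8 were higher on day 7.

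From day 5 to day 7, when the cells went into differentiation medium, most of the members changed in both arms. In shRNA CON Dlx6os1, Rmst and Sox2ot rose and Pvt1, Pantr1, Miat and Gas5 fell. In shRNA RUS the same 7 genes changed in the same directions, and Malat1 and Neat1 rose as well. In shRNA CON 26.9% of 23789 lines were called higher and 21.6% lower, and in shRNA RUS 35% and 25.8%. The 7 of 9 and 9 of 9 members are thus to be read against shares of 48.5% and 60.8% called in either direction. Among lines with at least 1 TPM on average the background was higher, at 30.6% higher and 29.0% lower in shRNA CON and 39% and 34.3% in shRNA RUS. These levels were scaled over all 16 libraries. With TPM as deposited the share of calls that were higher went from 55.5% to 71.4% in shRNA CON and from 57.5% to 76.9% in shRNA RUS, and the median log2 change of all lines was 0.20 and 0.42, in place of 0.07 and 0.13.

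The largest rise was that of Dlx6os1. It went from 17.7 ± 2.45 to 47.1 ± 4.73 TPM in shRNA CON (2.66-fold, log2 1.41 ± 0.11, limma adjusted p = 5.38e-08) and from 10.6 ± 1.46 to 44.4 ± 3.66 TPM in shRNA RUS (4.18-fold, log2 2.07 ± 0.11, adjusted p = 5.05e-10). Rmst rose 2.29-fold and 2.30-fold (log2 1.20 ± 0.30 and 1.21 ± 0.30). Sox2ot rose from 69.7 ± 5.78 to 92.4 ± 2.83 TPM in shRNA CON (log2 0.41 ± 0.06) and from 67.9 ± 4.25 to 95.8 ± 2.32 TPM in shRNA RUS (0.50 ± 0.06). For Rmst and Sox2ot the rise did not differ between the arms by the interaction test (log2 0.01 ± 0.42 and 0.09 ± 0.08, adjusted p = 0.992 and 0.446).

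Pvt1 fell most in control cells, from 23.2 ± 2.09 to 10.5 ± 0.315 TPM (log2 -1.14 ± 0.06, adjusted p = 4.03e-10), and less in shRNA RUS, from 19.4 ± 0.836 to 13.2 ± 0.377 TPM (-0.56 ± 0.06). In other settings the Pvt1 value ran from -1.23 to -0.99 in shRNA CON and from -0.66 to -0.24 in shRNA RUS. Pantr1 showed the opposite order, with the larger fall in shRNA RUS. It fell from 224 ± 24.1 to 138 ± 12.3 TPM in shRNA CON (log2 -0.69 ± 0.09) and from 279 ± 18.6 to 105 ± 10.5 TPM in shRNA RUS (-1.41 ± 0.09). Gas5 fell by 0.19 ± 0.06 in shRNA CON and by 0.45 ± 0.06 in shRNA RUS on the log2 scale, but both signs turned after quantile normalization (0.04 and 0.07, neither called). The call in shRNA CON was also lost with TPM as deposited (-0.04, adjusted p = 0.496) and after scaling to the 75th percentile (-0.12, adjusted p = 0.158). Miat fell by 0.28 ± 0.09 and 0.34 ± 0.09, a call in shRNA CON that was lost without day 5 replicate 1 (adjusted p = 0.0531) and under the 3 other scalings. The call in shRNA RUS was lost with TPM as deposited (log2 -0.02).

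Malat1 and Neat1 differed from the rest in that they were called across days in shRNA RUS and not in shRNA CON. Malat1 was at 424 ± 43.4 and 517 ± 48.2 TPM in shRNA CON (log2 0.29 ± 0.15, adjusted p = 0.133), and rose from 381 ± 123 to 829 ± 41.3 TPM in shRNA RUS (1.17 ± 0.15, adjusted p = 5.72e-06). In shRNA CON it was called higher with TPM as deposited, after quantile normalization and in a fit over the 2 groups alone (log2 0.44, 0.57 and 0.29). Neat1 was at 51.0 ± 6.33 and 53.4 ± 2.17 TPM in shRNA CON (log2 0.07 ± 0.11), and rose from 37.2 ± 5.21 to 68.0 ± 8.70 TPM in shRNA RUS (0.87 ± 0.11).

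**Figure D5:**
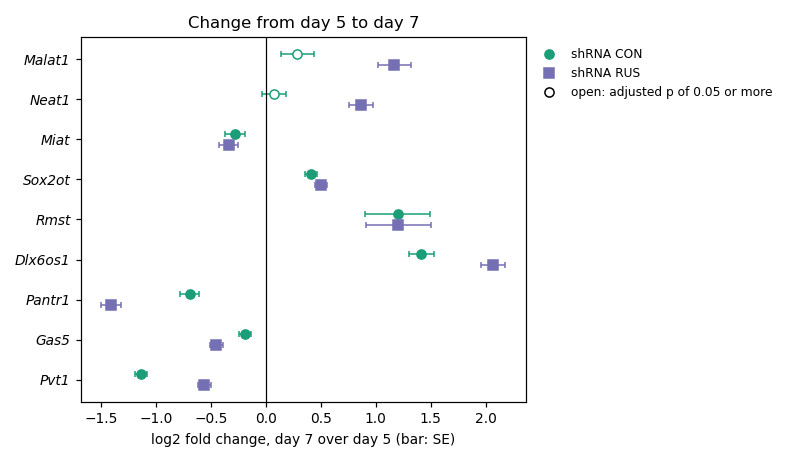
Log2 fold change of day 7 over day 5 (horizontal axis, bar: SE) for each member in shRNA CON (circles) and shRNA RUS (squares); filled symbols passed the test. Malat1 (1.17) and Neat1 (0.87) were called in shRNA RUS only, and Pvt1 fell by 1.14 in shRNA CON against 0.56 in shRNA RUS.

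The difference between the arms was itself tested as the knockdown effect on day 7 minus that on day 5. It passed for 6 of the 9 RNAs, 4 with a higher and 2 with a lower value on day 7. Over all 23789 lines 15.2% were called higher and 14.6% lower in this comparison (20.4% and 20.1% of lines averaging 1 TPM or more), and the share of calls that were higher went from 51.1% to 73.5% with TPM as deposited. Malat1 had the largest positive value (log2 0.88 ± 0.21, limma adjusted p = 0.00594, and 1.08 ± 0.12 without the fourth day 5 shRNA RUS library), followed by Neat1 (0.79 ± 0.15, adjusted p = 0.00136), Dlx6os1 and Pvt1. Pantr1 (-0.71) and Gas5 (log2 -0.26 ± 0.08, adjusted p = 0.0222) were on the other side. The value of Gas5 was not called with any of the 3 other scalings and turned to 0.03 after quantile normalization.

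Other long noncoding RNAs of neural cells were read from a list of 36 names, of which 31 were tested on day 5 and 32 on day 7. On day 5, 3 rose and 9 fell (4 and 11 without shRNA RUS replicate 4), and on day 7, 14 rose and 9 fell. Of all lines averaging 1 TPM or more, 21.0% rose and 22.7% fell on day 5, and 32.0% and 33.2% on day 7. For GENCODE long noncoding RNAs at that level the shares were 10.9% and 20.0%, and 30.4% and 22.2%. Rian, a maternally expressed RNA of the Dlk1 and Meg3 domain, fell on both days, from 61.7 ± 6.00 to 28.5 ± 3.59 TPM on day 5 (log2 -1.11 ± 0.10) and from 180 ± 11.2 to 84.3 ± 8.02 TPM on day 7 (-1.09 ± 0.07). Its neighbour Meg3 was not called on day 5 (log2 -0.12 ± 0.11) and fell by 0.27 ± 0.04 on day 7. Crnde fell on both days as well (log2 -0.77 ± 0.25 and -1.27 ± 0.24), and Morrbid fell by 0.47 and 1.21. Tug1 and C130071C03Rik, the latter a host of the neural microRNA miR-9, fell on day 5 (log2 -0.67 ± 0.08 and -0.58 ± 0.09) and were not called on day 7 (-0.11 and -0.13), and for both the effects on the 2 days differed (0.55 and 0.44, adjusted p = 0.000874 and 0.0140).

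Frmd8, the coding gene that lies 4.22 kb from Neat1, rose on both days. It went from 45.2 ± 2.77 to 69.0 ± 9.29 TPM on day 5 (log2 0.60 ± 0.10) and from 47.5 ± 3.87 to 86.8 ± 5.14 TPM on day 7 (0.87 ± 0.07), so that on day 5 it moved opposite to Neat1. Over the 16 libraries the log2 levels of Neat1 and Frmd8 correlated at r = -0.0317.

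The genes whose log2 levels followed each member most closely over the 16 libraries were named by Pearson r among 15798 candidates. Pantr1 was followed by Atp5j, Micos10 and Sdhd (r = 0.994, 0.994 and 0.993), and r after the group means were taken out was 0.916, 0.847 and 0.818. Gas5 was followed by Arl1 (0.989), Scp2 (0.981) and Psmd7 (0.976), Malat1 by Wdr26 (0.965), Cpsf7 (0.956) and Ubr2 (0.955), and Neat1 by Brpf1 (0.965), Ncoa6 (0.963) and Igsf3 (0.956). Without the group means r was 0.919, 0.867 and 0.765 for Gas5 and 0.792, 0.816 and 0.727 for Malat1. For Neat1 it was 0.836, 0.825 and 0.861. Dlx6os1 was followed by Shtn1 (0.992), Plcl2 (0.991) and Hnrnph1 (0.989), Sox2ot by Dennd5b (0.985), Zfp84 (0.983) and Fam13b (0.981), and Rmst by Shc2 (0.922), Klhl34 and Dynll2 (both 0.906). For Miat the nearest were Camk2a (0.980), Aurkb (0.978) and Ywhae (0.974), for which r was 0.568, 0.536 and 0.528 without the group means. For Pvt1 they were Gsta3 (0.990), Kcnip3 (0.983) and Bhlhe40 (0.980), for which r without the group means was 0.553, -0.234 and 0.0222. The libraries share 4 group means and their library factors, and these values are a description.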

How the data were processed

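Poly(A)-selected RNA of 16 libraries was sequenced, 4 per group. Per the methods, reads were aligned with STAR to mm10, quantified with RSEM on GRCm38 transcripts and evaluated by the authors with a count model. The STAR version and strand setting are not given in the sources used here. The deposited tables hold TPM per library, which the authors made with RSEM and which keep no sequencing depth, and the authors' mean normalised count over the 8 libraries of a day. The latter, a signal scale of the authors, was used only as a guide to depth. The authors' fold changes and p-values were not used. Replicates carry numbers in the labels, but the labels do not say that they came from separate cultures, so p-values measure the spread between these samples.

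TPM were divided by a median-ratio library factor from lines at 1 TPM or more in all libraries of a fit (0.92 to 1.11 on day 5, 0.991 to 1.01 on day 7). Lines with a mean of at least 0.1 TPM entered limma 3.58.1 (R 4.3.3) with a trend on log2(TPM + 0.1), two-sided. Fold changes on this scale understate those of low genes. Days were fitted separately, and day contrasts and the interaction in 1 fit of 16 libraries. On day 5, 3 lines without a symbol (0.134% to 0.386% of TPM) were left out, as were 106 lines whose symbols differed between the tables from the fit over both days. The test was also run on simulated normal log values, which meet its assumptions by design and so cannot vouch for its calls here. The members and lists were chosen with earlier results of these data known. Besides the members, the listed neighbours were named (1 is not reported here), up to 4 genes per list and day with the largest change among those called at a mean of 1 TPM or more, and the 3 genes most like each member; marker lists are given as sums and counts, with single genes where a few carried the sum, chosen after their values were seen. The day 5 counts without shRNA RUS replicate 4 were chosen after seeing the data. Meg3, Mdm2, Ccng1, Btg2 and the values of named genes on the other day were added after they were seen. Snhg7, Pnky and 1700020I14Rik matched no line. Positions and sequences are from GENCODE vM21 (GRCm38), which may differ from the release the authors used. Short gene models share exon bases with 7 of the members (all but Pantr1 and Gas5) and snoRNA genes with Gas5, so reads could be split there.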

Additional observations from a re-analysis of the deposited data

Results flagged for a closer look

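Dlx6os1 in the library labelled shRNA RUS replicate 2 of day 5 was at 7.77 TPM, while the other 3 libraries of its group lay between 10.3 and 10.5 TPM, a gap of 0.927 of the group's range. The second Dlx6os1 line was at 14.8 TPM in shRNA CON replicate 2 of day 7, against 4.26 to 4.90 TPM in the other 3 (0.939 of the range). In 44 groups of 4 examined, these 2 exceeded Dixon's 95% critical value, and chance gives about 1 in 20.

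The knockdown effect differed between the days, by the interaction test in limma, for 6 of the 9 members. Of all lines tested 15.2% were called higher and 14.6% lower by it, and 20.4% and 20.1% of those averaging 1 TPM or more. On the log2 scale the effect on day 7 minus that on day 5 was 0.88 for Malat1, 0.79 for Neat1, 0.65 for Dlx6os1, 0.58 for Pvt1, -0.26 for Gas5 and -0.71 for Pantr1. Neat1 and Pvt1 were called lower on day 5 and higher on day 7, and Pantr1 the other way. The day 5 calls of Pvt1 and Pantr1 were lost in some settings. The Gas5 difference was not called under the other scalings or with the replicate block.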

How the results depend on the processing

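Over 872 repeats of a member's value under another setting, 833 kept their side of the threshold, 32 lost the call, 4 gained it and 3 turned direction from a called value. The 3 were Gas5 after quantile normalization, at log2 0.0406 from day 5 to day 7 in shRNA CON, 0.0686 in shRNA RUS and 0.0281 for the difference of the knockdown effect. Some of the 833 changed sign without a call in either fit. On leaving out 1 library, the day 5 effect of Rmst reached -0.131 and that of Sox2ot 0.0166. The difference of effects of Miat reached 0.11 in another setting, and that of Rmst changed sign as well. The number of members called stayed within 1.5 times under every setting. On leaving out 1 library it ranged from 4 to 7 on day 5, 5 to 6 on day 7, 6 to 7 between days in shRNA CON, 9 in shRNA RUS and 6 for the difference of effects. Miat and Neat1 on both days, Dlx6os1 and Gas5 on day 5, and Malat1, Pantr1 and Pvt1 on day 7 kept their knockdown calls in every setting run. At a filter of 1 TPM Rmst left the day 5 fit and has no value. Same-numbered libraries did not deviate together (r from -0.252 to -0.0155 on day 5 and 0.0159 to 0.101 on day 7), so the numbers were not taken to pair them. With the replicate block 5 members were called on day 5, 5 on day 7 and 5 for the difference of effects, Pvt1 on day 5 (adjusted p = 0.0994) and Gas5 on day 7 (0.0784) and for the difference (0.101) having lost their calls. All lines called were then 4966, 11225 and 5208. For the change between days the block by day and number could not be fitted, and a block by number alone, chosen after seeing the data, gave 7 and 9 members. The cause of these shifts was not tested. TPM carry no depth, so counting error could not be given.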
